A study of Mus musculus with 8 samples.

Results

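The 7 genes described here, Marco, Msr1, Scarb1, Cd36, Lpl, Fabp4 and Plin2, encode scavenger receptors and proteins that take up, carry or store lipid in macrophages. They were taken by symbol from the 18193 genes that the arrays measured. All 19 probe sets that carry only the symbol of 1 of these genes were read, and each gene was represented by its brightest probe set, by the mean of the 8 arrays. A probe set is a group of short oligonucleotides on the array that are read together as 1 signal. Of the 7 genes, 6 lay above the filter on dim signals and were tested among 8908 genes. Cd36 lay under it.

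Expression was measured in RAW 264.7 cells, a mouse macrophage line, on 8 Affymetrix arrays, 2 per group. The groups were control cells (C), cells given menthol (M), cells given lipopolysaccharide (LPS), and cells given menthol and then LPS (LPS+M). Menthol or control treatment lasted 1 h, and LPS, a glycolipid of the Gram-negative cell wall, was then applied to the LPS and LPS+M cells for 6 h at 100 ng/ml. The comparisons addressed how menthol altered expression in resting and in LPS-stimulated macrophages. All groups were the same cell line, so no other cell type or genotype was represented. The sample labels give neither the dose of menthol nor the harvest time of C and M, so a difference in culture time between groups with and without LPS cannot be told apart from LPS itself. The 2 arrays of each group are labelled as biological replicates without stating separate cultures, so a p-value here covers no more than the variation between arrays, which may be technical.

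Scavenger receptors bind modified lipoproteins, bacterial products and debris at the macrophage surface. Marco and Msr1 are class A receptors with collagen-like domains, whereas Scarb1 and Cd36 are class B receptors that handle high-density lipoprotein, oxidised lipoprotein and fatty acids. Lpl is the secreted lipase that frees fatty acids from triglyceride-rich lipoproteins, Fabp4 carries fatty acids in the cytosol, and Plin2 coats lipid droplets. Together they cover entry, transport and storage of lipid, the steps by which a macrophage becomes a foam cell.

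Values are log2 signals made by the authors with GC-RMA, and differences are log2 fold changes ± their standard errors from 1 limma fit of all 8 arrays. A gene was counted as upregulated or downregulated only at a Benjamini-Hochberg adjusted p under 0.05 over all 8908 genes and a fold change of at least 1.5, which is 0.58 on the log2 scale. The filter was the mean of all probe sets, 4.84. Signals of different genes are not comparable on this scale, because probes bind with different strength. Array medians lay between 2.99 and 3.04, and replicate arrays correlated at 0.999 across probe sets. The 10 macrophage markers examined were all above the filter, and their summed level was 17.4 to 17.5 on every array. None of the adipocyte, fibroblast, endothelial, epithelial, T cell or B cell markers measured lay above the filter, including 4 adipocyte markers, whose summed level was 4.24 to 4.29. The 5 tested LPS response genes, Tnf, Ptgs2, Acod1, Saa3 and Cd40, were all upregulated in LPS compared to C, with a median difference of 3.32. The other 2 of that list, Il1b and Nos2, lay under the filter, with Il1b at 5.90 and 5.41 in LPS against 3.08 to 3.22 on the other 6 arrays, and Nos2 at 1.89 to 1.93 throughout.

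Marco, Fabp4 and Lpl were the genes of this set that moved, and Msr1, Scarb1 and Plin2 stayed within 1.5-fold in every comparison. LPS upregulated Marco and Fabp4 compared to C, so 2 of the 6 tested genes changed, where 6.13% of all tested genes did. Menthol alone downregulated Fabp4 and Lpl, 2 of 6 against 4.55% of all tested genes. Addition of menthol before LPS downregulated Marco, Fabp4 and Lpl compared to LPS alone, 3 of 6 against 6.71%. Between LPS and M the same 3 genes differed, all higher in LPS, against 11.3% of all tested genes. In LPS+M compared to M none of the 6 passed limma's test with the fold minimum, where 4.16% of all tested genes did. Of the 6, 5 had an unadjusted p under 0.05, as did at least 1268 of all 8908. In LPS+M compared to C none passed either, where 9.83% of all tested genes did. There 4 of the 6 had an unadjusted p under 0.05, as did at least 3085 of all 8908. The methods' t-test at an unadjusted p called 0 of the 6 in both of these comparisons, and 217 and 503 of all 8908. At an adjusted p under 0.05 with no fold minimum, limma passed 2 and 4 of the 6, beside 1268 and 3085 of all 8908. An unadjusted p is never above its adjusted one, so these are the least numbers with an unadjusted p under 0.05. Median differences over the 6 genes were 0.25 in LPS compared to C, -0.08 in M compared to C and -0.61 in LPS+M compared to LPS, beside -0.03, 0.02 and 0.03 over all tested genes.

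**Figure D1:**
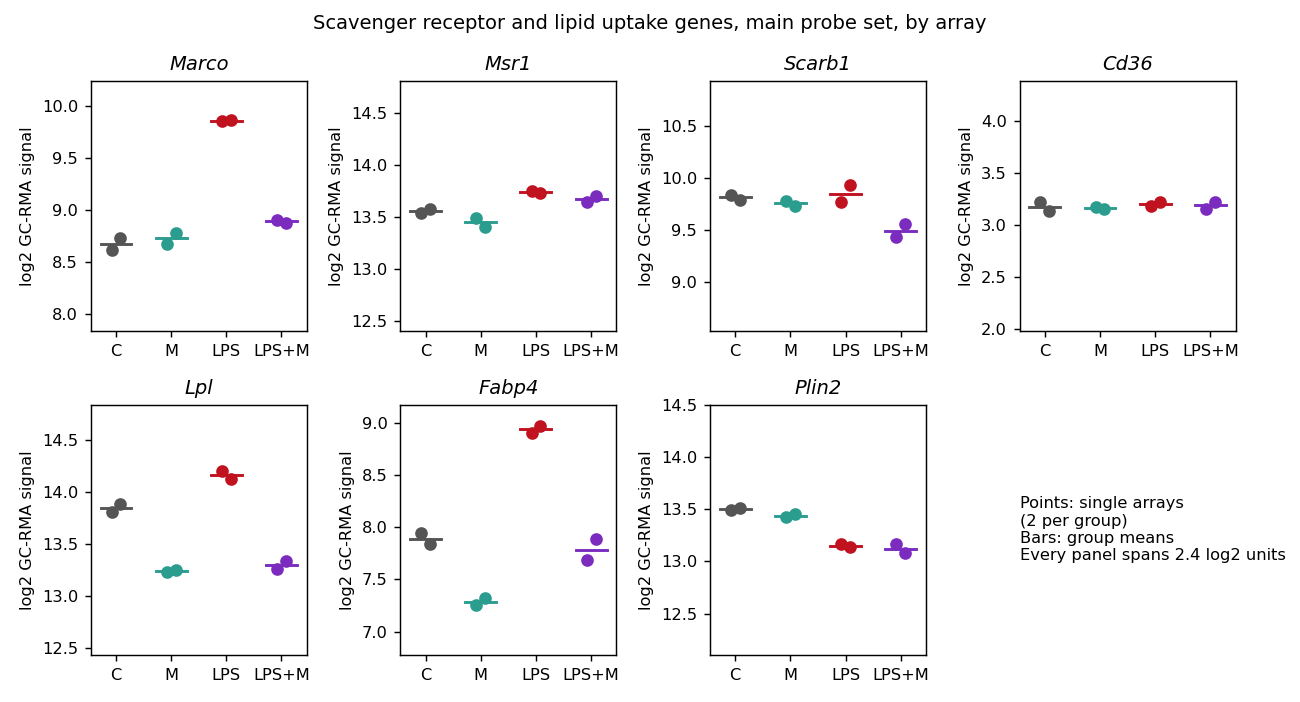
Log2 GC-RMA signal of the main probe set of each of the 7 genes on the 8 arrays, by group (points are single arrays, bars are group means, and every panel spans the same log2 range around its own centre). The LPS arrays stand above all others for Marco and Fabp4, the arrays of both menthol groups stand lowest for Lpl, and Cd36 lies flat between 3.13 and 3.22.

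Marco is a pattern recognition receptor that binds bacteria and inhaled particles and is known as a gene that macrophages induce on contact with bacterial products. Its log2 signal was 8.61 and 8.74 in C, 8.67 and 8.78 in M, 9.86 and 9.86 in LPS, and 8.90 and 8.88 in LPS+M. The 2 LPS arrays stood clearly above the remaining 6, and the C and M arrays overlapped. Compared to C, LPS upregulated Marco by 1.18 ± 0.07 (2.27-fold, adjusted p = 2.88e-05), rank 92 from the top of 8908 genes. Compared to LPS, Marco in LPS+M fell by 0.97 ± 0.07 (1.96-fold, adjusted p = 0.000129), rank 60 from the bottom. Because the arrays measure pooled cells, a smaller share of expressing cells and less RNA per cell cannot be told apart.

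Menthol without LPS left Marco at 0.05 ± 0.07 relative to C (adjusted p = 0.633), and LPS+M lay 0.22 ± 0.07 above C (adjusted p = 0.0445), below the fold minimum. The difference between the menthol effects was tested directly. The interaction, which is the effect of menthol with LPS minus its effect without LPS, was -1.02 ± 0.10 (95% interval -1.25 to -0.79, adjusted p = 0.0172). Marco was 1 of 6 tested genes, and the only one, with a called interaction, against 0.236% of all tested genes, and its value was the 14th lowest of 8908. This call was narrow. With every probe set tested by itself the adjusted p was 0.0694, with no filter it was 0.0557, and without 1 array it rose to 0.0549 (C replicate 1), 0.0532 (M replicate 1), 0.0839 (M replicate 2) and 0.0745 (LPS+M replicate 1), while the interaction stayed between -1.08 and -0.96. A dimmer second probe set of Marco read 6.49 and 6.78 in C, 6.86 and 6.48 in M, 7.81 and 7.91 in LPS, and 7.04 and 6.91 in LPS+M. Its LPS arrays were again the highest, with a difference of 1.22 in LPS compared to C and -0.88 in LPS+M compared to LPS, both past the threshold in a fit of all single probe sets. Its interaction of -0.92 had an adjusted p of 0.301.

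Promoter sequences from RefSeq (assembly GRCm38.p6) were matched for 3 of the 7 genes, Marco, Cd36 and Plin2. The 250 bases before the start of Marco and of Plin2 are shown because both genes were tested and their LPS values point in opposite directions. Both lie on the minus strand, Marco at chr1:120505025-120505274 and Plin2 at chr4:86670060-86670309, and both are printed 5′ to 3′ along the gene. Capitals mark matches to motifs searched on both strands.
Marco: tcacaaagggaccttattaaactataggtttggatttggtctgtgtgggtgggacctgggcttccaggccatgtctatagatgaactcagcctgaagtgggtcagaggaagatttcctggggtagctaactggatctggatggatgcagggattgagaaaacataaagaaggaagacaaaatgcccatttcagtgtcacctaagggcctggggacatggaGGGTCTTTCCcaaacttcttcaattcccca
Plin2: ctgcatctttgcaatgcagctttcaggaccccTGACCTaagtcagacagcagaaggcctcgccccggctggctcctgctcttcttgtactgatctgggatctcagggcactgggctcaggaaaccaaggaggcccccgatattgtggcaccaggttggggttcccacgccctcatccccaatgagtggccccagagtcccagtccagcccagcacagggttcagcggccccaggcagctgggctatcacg
The match in Marco, GGGTCTTTCC, is of the NF-kB type and lies 30 to 21 bases before the start. An NF-kB match of this kind was present in 464 of 32851 promoters of this length (1.41%). The match in Plin2, TGACCT, is the reverse complement of the nuclear receptor hexamer AGGTCA, lies 218 to 213 bases before the start, and has a counterpart in 14% of all promoters. The Cd36 promoter also held 1 such hexamer. The other motifs searched were the DR1 element, a direct repeat of that hexamer, AP-1 (TGANTCA), PU.1 (GAGGAAGT), the TATA box (TATAAA), CRE (TGACGTCA) and the C/EBP and ATF4 element (TGATGCAA), and none of these letters were in the 3 windows. These matches describe the sequence and are not evidence of binding, and any link between them and the LPS values was not tested.

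Msr1, the macrophage class A receptor for acetylated and oxidised lipoproteins, was bright and nearly flat. It read 13.53 and 13.57 in C, 13.49 and 13.41 in M, 13.75 and 13.73 in LPS, and 13.65 and 13.70 in LPS+M. The groups did not overlap, and LPS was highest and M lowest, but the whole range of group means was 0.29. LPS compared to C gave 0.18 ± 0.06 (adjusted p = 0.0727), and LPS+M compared to LPS gave -0.07 ± 0.06 (adjusted p = 0.468, 95% interval -0.21 to 0.08). A further 3 probe sets measured Msr1, at 12.84 to 13.07, 11.95 to 12.38 and 11.48 to 11.92. For both menthol comparisons all 3 had the opposite sign to the brightest probe set, with differences of 0.04, 0.04 and 0.28 for M against C and of 0.12, 0.21 and 0.38 for LPS+M against LPS. The dimmest gave the largest of these, with C at 11.55 and 11.48, M at 11.82 and 11.78, LPS at 11.50 and 11.53, and LPS+M at 11.92 and 11.88. On this probe set both menthol groups stood above the groups without menthol (adjusted p = 0.0212 for M against C and 0.00552 for LPS+M against LPS), again below the fold minimum. The direction of the menthol difference of Msr1 differed between its probe sets.

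Scarb1, the receptor for high-density lipoprotein, read 9.84 and 9.79 in C, 9.78 and 9.74 in M, 9.77 and 9.93 in LPS, and 9.44 and 9.56 in LPS+M. The LPS+M arrays were the lowest and did not overlap any other group, while C, M and LPS lay together. The difference of LPS+M from LPS was -0.35 ± 0.08 (1.28-fold, adjusted p = 0.012) and from C -0.32 ± 0.08 (adjusted p = 0.0139), both smaller than the fold minimum. Menthol alone gave -0.06 ± 0.08 (adjusted p = 0.627) and LPS alone 0.03 ± 0.08 (adjusted p = 0.807). Its 2 other probe sets gave -0.28 and 0.01 for LPS+M compared to LPS, so the difference from LPS was not shared by all 3. Compared to C, the same 2 gave -0.40 and -0.32 for LPS+M (limma adjusted p = 0.0134 and 0.108), the same direction as the brightest. The probe set with 0.01 also gave -0.34 for LPS compared to C (adjusted p = 0.134).

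Cd36, the class B receptor for oxidised lipoprotein and long-chain fatty acids, gave no signal above the filter. Its brightest probe set read 3.22 and 3.13 in C, 3.17 and 3.15 in M, 3.18 and 3.22 in LPS, and 3.16 and 3.22 in LPS+M. These arrays lay within a narrow band, in which only M and LPS did not overlap. The 2 other probe sets lay at 2.56 to 2.61 and 2.43 to 2.48. These values are close to the array medians, so no fold change is given for Cd36, and these probes do not show whether the gene was expressed at a low level.

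Lpl was lower in both menthol groups than in the matching groups without menthol. It read 13.81 and 13.88 in C, 13.23 and 13.25 in M, 14.20 and 14.12 in LPS, and 13.25 and 13.34 in LPS+M. The 4 arrays with menthol lay together at the bottom, and the LPS arrays lay above the C arrays. With menthol, Lpl fell by 0.60 ± 0.07 in resting cells (1.52-fold, adjusted p = 0.00107). In LPS-stimulated cells it fell by 0.86 ± 0.07 (1.82-fold, adjusted p = 0.000154). The first of these was just past the fold minimum and was no longer counted without C replicate 2, at -0.57. The interaction was -0.26 ± 0.09 (adjusted p = 0.382) and did not pass the test.

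LPS gave 0.31 ± 0.07 for Lpl in cells without menthol (adjusted p = 0.0123), under the fold minimum, and 0.06 ± 0.07 in cells with menthol (adjusted p = 0.615). LPS+M compared to C gave -0.55 ± 0.07 (1.46-fold, adjusted p = 0.00059), just outside the fold minimum, which it passed without LPS+M replicate 2 at -0.59. The second probe set of Lpl read 11.07 and 11.01 in C, 10.44 and 10.40 in M, 11.40 and 11.37 in LPS, and 10.61 and 10.50 in LPS+M. It had the same order of LPS above C and C above both menthol groups, with -0.83 in LPS+M compared to LPS and -0.62 for M against C.

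**Figure D2:**
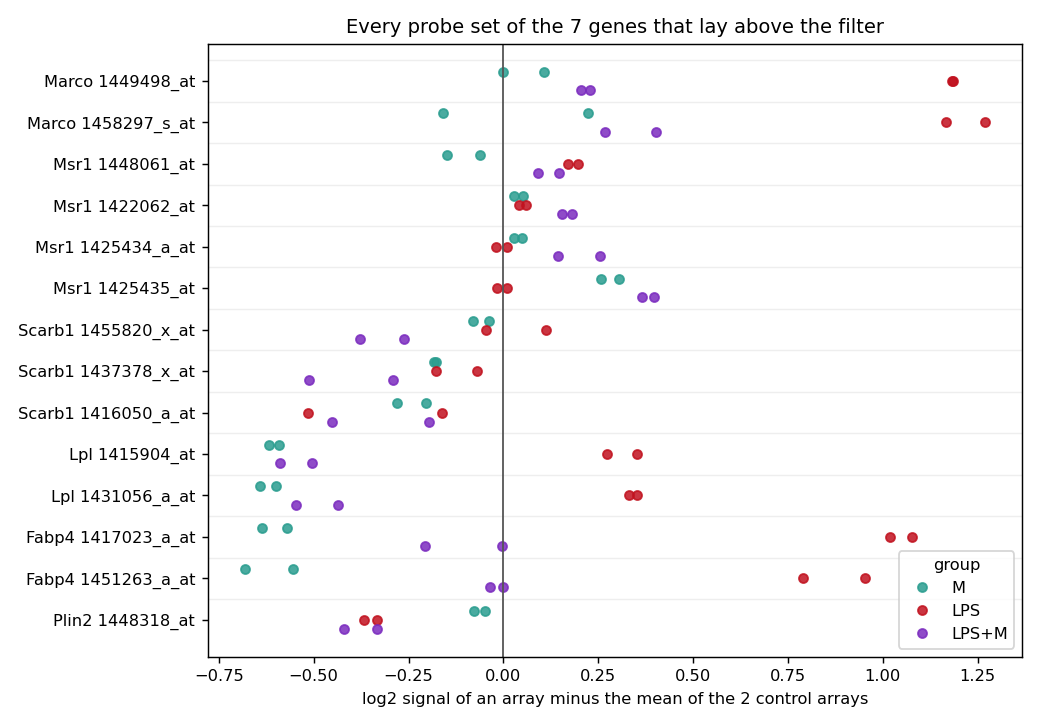
Log2 signal of each M, LPS and LPS+M array minus the mean of the 2 C arrays, for the 14 probe sets of the 7 genes above the filter (1 line per probe set, points are arrays). Both probe sets of Marco, Lpl and Fabp4 show their genes' pattern, with Marco and Fabp4 furthest right in LPS, whereas the probe sets of Msr1 and of Scarb1 differ among themselves.

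Fabp4, the adipocyte and macrophage fatty acid binding protein, had the widest range of the 7 genes, 1.65 between its highest and lowest group means. It read 7.95 and 7.84 in C, 7.25 and 7.32 in M, 8.91 and 8.97 in LPS, and 7.69 and 7.89 in LPS+M. The LPS arrays were highest and the M arrays lowest, and the C and LPS+M arrays overlapped between them. LPS upregulated Fabp4 compared to C by 1.05 ± 0.08 (2.07-fold, adjusted p = 0.000124), rank 119 from the top. With menthol, Fabp4 fell by 0.60 ± 0.08 in resting cells (1.52-fold, adjusted p = 0.00285). It fell by 1.15 ± 0.08 in LPS-stimulated cells (2.22-fold, adjusted p = 0.000129), rank 40 from the bottom. The resting value lay near the fold minimum, and was under it without C replicate 1, at -0.55, or without M replicate 1, at -0.57.

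With menthol present, the LPS difference of Fabp4 was 0.50 ± 0.08 (adjusted p = 0.00674), under the fold minimum, which it passed without LPS+M replicate 1 at 0.60. LPS+M and C differed by -0.11 ± 0.08 (adjusted p = 0.371, 95% interval -0.30 to 0.09). The interaction was -0.55 ± 0.12, with an unadjusted p of 0.00175 and an adjusted p of 0.155, and was therefore not counted. The next probe set of Fabp4 read 5.81 and 5.85 in C, 5.27 and 5.15 in M, 6.62 and 6.78 in LPS, and 5.83 and 5.79 in LPS+M. Its differences were 0.87 for LPS against C, -0.62 for M against C, -0.89 for LPS+M against LPS and 0.60 for LPS+M against M, and each of the 4 passed the threshold with every probe set tested by itself. The remaining 2 probe sets of Fabp4 were under the filter, at 2.03 to 2.08 on all arrays.

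Plin2, the main lipid droplet coat protein of macrophages, was lower in both LPS groups by less than the fold minimum. It read 13.49 and 13.51 in C, 13.42 and 13.45 in M, 13.17 and 13.13 in LPS, and 13.17 and 13.08 in LPS+M. The 4 arrays with LPS lay below the 4 without it, and LPS and LPS+M overlapped. LPS gave -0.35 ± 0.06 without menthol (1.27-fold, adjusted p = 0.00562) and -0.31 ± 0.06 with menthol (adjusted p = 0.0129). Menthol gave -0.06 ± 0.06 without LPS (adjusted p = 0.511) and -0.03 ± 0.06 with LPS (adjusted p = 0.757). The interaction was 0.03 ± 0.09 (adjusted p = 0.952).

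**Figure D3:**
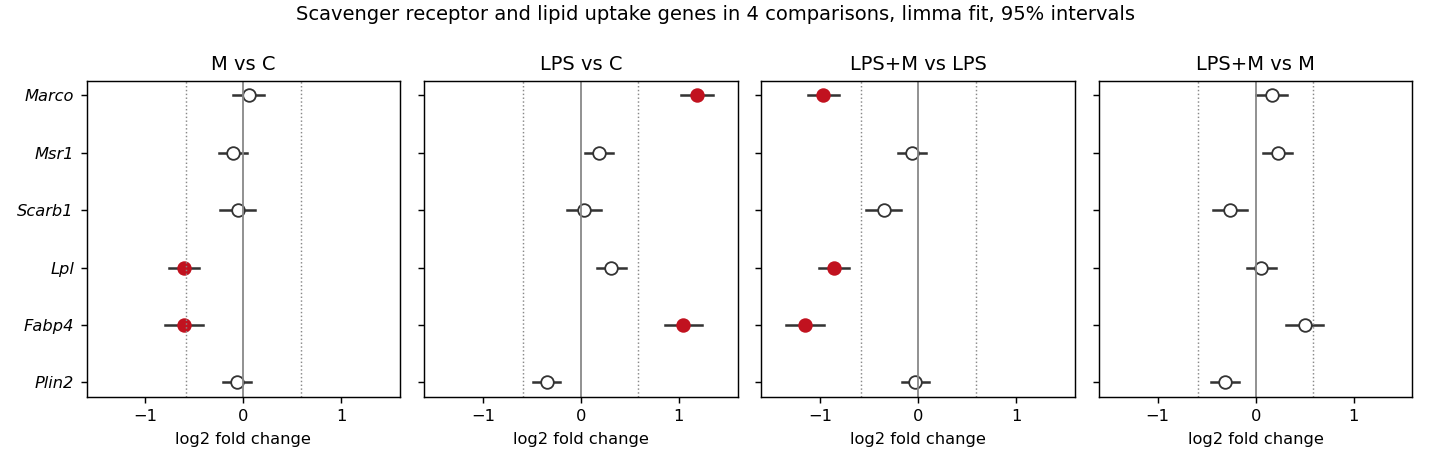
Log2 fold change of the 6 tested genes in 4 comparisons, with 95% intervals from the limma fit (filled points passed the adjusted p and the fold minimum, open points did not, dotted lines mark 1.5-fold). Filled points are Fabp4 and Lpl in M vs C, Marco and Fabp4 in LPS vs C, and Marco, Fabp4 and Lpl in LPS+M vs LPS, and there are none in LPS+M vs M.

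The effects of each agent without and with the other were set against each other in comparisons that share no arrays. For the LPS effect without and with menthol, Marco had 1.18 and 0.16, Fabp4 1.05 and 0.50, and Lpl 0.31 and 0.06. Plin2 had -0.35 and -0.31, Msr1 0.18 and 0.22, and Scarb1 0.03 and -0.26. For the menthol effect without and with LPS, Marco had 0.05 and -0.97, Fabp4 -0.60 and -1.15, and Lpl -0.60 and -0.86. Plin2 had -0.06 and -0.03, Msr1 -0.10 and -0.07, and Scarb1 -0.06 and -0.35. For each gene the difference between effects is the same number both ways, the interaction, and only Marco's passed its test. The order of group means was LPS, LPS+M, M and C for Marco, and LPS, C, LPS+M and M for both Fabp4 and Lpl. Neighbours that did not differ at an adjusted p under 0.05 were LPS+M and M (0.168) and M and C for Marco, C and LPS+M for Fabp4, and LPS+M and M for Lpl.

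**Figure D4:**
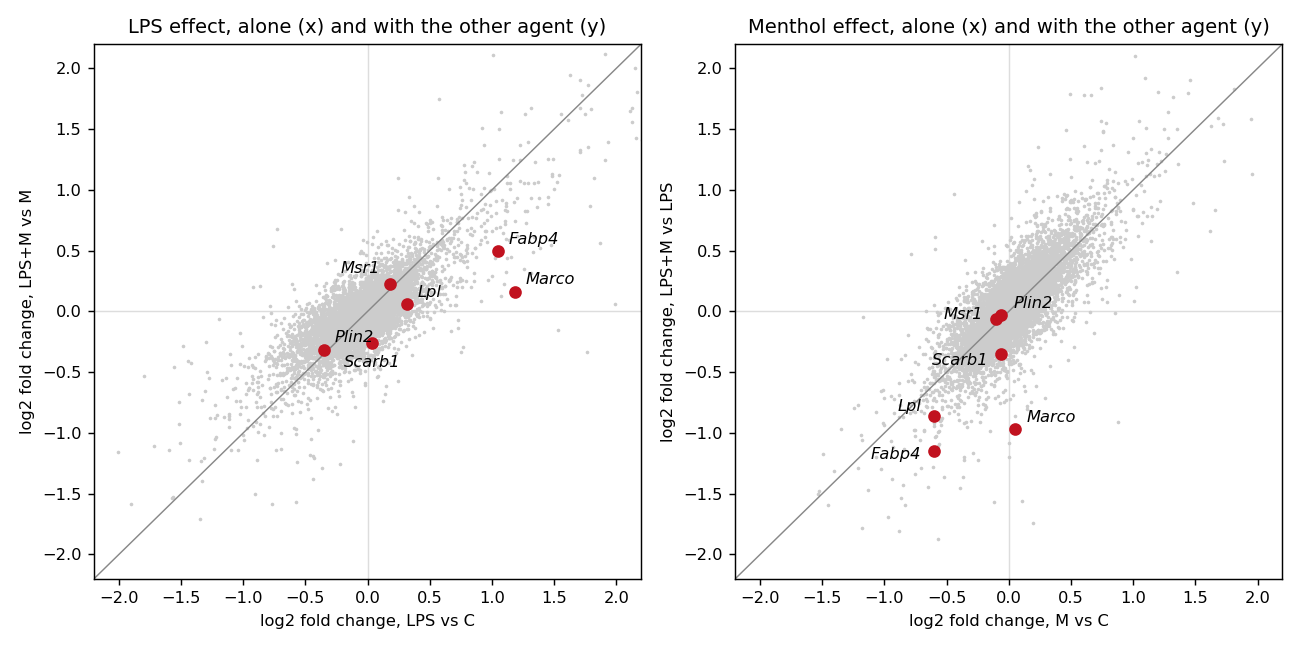
Log2 fold change of LPS without menthol (x) and with menthol (y), left, and of menthol without LPS (x) and with LPS (y), right, for all tested genes (grey) and the 6 tested scavenger receptor and lipid uptake genes (red), with the line of equal effects. The vertical distance of a gene from the line is its interaction, the same number in both panels. Marco (-1.02) and Fabp4 (-0.55) lie furthest below it, Scarb1 (-0.29) and Lpl (-0.26) lie less far below, and Plin2 lies near it. Beyond the axes at 2.2 lie 33 genes on the left and 11 on the right.

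No receptor of the wider scavenger receptor list other than Marco was called with LPS or with menthol alone. Of its 24 genes, 23 were on the array and 11 were tested. Marco was the 1 gene of 11 called in LPS compared to C, where 6.13% of all tested genes were called, and the 1 of 11 called in LPS+M compared to LPS, against 6.71%. For menthol alone limma called 0 of the 11, against 4.55%. Of the 11, 1 had an unadjusted p under 0.05, as did at least 1934 of all 8908. These counts are near those of all tested genes. Without the fold minimum, 6 of the 11 had an adjusted p under 0.05 in LPS compared to C (3 higher and 3 lower), 2 in LPS+M compared to LPS, 5 in LPS+M compared to C and 7 in LPS compared to M. Of all 8908 tested genes, 1935, 2560, 3085 and 3450 did so, in the same order of comparisons. The list medians were -0.06 in LPS compared to C and -0.07 in LPS+M compared to LPS. Mertk, a receptor for apoptotic cells, fell by 0.61 ± 0.07 in LPS+M compared to C (adjusted p = 0.000372), and gave -0.56 ± 0.07 in LPS compared to C, under the fold minimum. Cd68, the lysosomal macrophage glycoprotein, gave between -0.13 and 0.05 in the 6 comparisons between groups.

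Among 13 tested genes of fatty acid uptake and activation, the downregulated ones in LPS+M compared to LPS were Fabp4, Lpl and Fabp3, while Slc27a4 was upregulated. Fabp3, the heart type fatty acid binding protein, fell by 0.63 ± 0.18 (adjusted p = 0.0361) from LPS arrays of 5.74 and 6.27 that differed widely. Slc27a4, a fatty acid transport protein with acyl-CoA synthetase activity, rose by 0.79 ± 0.09 (adjusted p = 0.000978). Fabp4, Lpl, Fabp3 and Slc27a4 made up 4 called genes of 13, against 6.71% of all tested genes. For M against C the 2 of 13 called were Fabp4 and Lpl, against 4.55%, and for LPS against C the 1 of 13 was Fabp4, against 6.13%, a share near that of all tested genes. Angptl4, the secreted inhibitor of lipoprotein lipase, gave -0.29 ± 0.06 for M against C (adjusted p = 0.0138) and -0.19 ± 0.06 for LPS+M against LPS (adjusted p = 0.0488), and Fabp5, the epidermal type binding protein, gave -0.21 ± 0.07 in M compared to C (adjusted p = 0.0564). None of these 3 values reached the fold minimum, and Acsl1 was not analysed here.

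The lipid droplet list gave 7 tested genes, of which Hilpda had the most calls. Hilpda, an inhibitor of droplet lipolysis, read 7.86 and 8.09 in C, 8.56 and 8.61 in M, 8.34 and 8.42 in LPS, and 9.40 and 9.19 in LPS+M. It was upregulated by menthol in resting cells (0.61 ± 0.10, adjusted p = 0.00526) and in LPS-stimulated cells (0.91 ± 0.10, adjusted p = 0.000714). The LPS+M arrays were the highest, 1.32 ± 0.10 above C (adjusted p = 6.16e-05). Abhd5, a coactivator of triglyceride lipase, was upregulated in LPS+M compared to LPS by 0.67 ± 0.08 (adjusted p = 0.00122), and Nceh1, a cholesteryl ester hydrolase, fell by 0.68 ± 0.12 in LPS compared to C (adjusted p = 0.00549). Counted over the 7 tested droplet genes, Plin2 included, 1 was called in M compared to C (higher), 1 in LPS compared to C (lower) and 2 in LPS+M compared to LPS (higher), beside 4.55%, 6.13% and 6.71% of all tested genes. The median difference was 0.24 in M compared to C and 0.10 in LPS+M compared to LPS.

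Nuclear receptors sense fatty acids and sterols and control several of the 7 genes. Of the 8 listed, Pparg, Ppara and Nr1h3 were under the filter, at 2.76 to 2.86, 2.64 to 2.70 and 2.33 to 2.36, and Nr1h2 was not analysed here. Ppard, the fatty acid receptor PPAR delta, was upregulated by menthol by 0.71 ± 0.07 in resting cells (adjusted p = 0.000568) and by 0.71 ± 0.07 in LPS-stimulated cells (adjusted p = 0.000361). The coactivator Ppargc1b was downregulated in the same comparisons, at -0.61 ± 0.12 (adjusted p = 0.0098) and -0.79 ± 0.12 (adjusted p = 0.00268). The partner receptor Rxrb gave 0.44 and 0.48 there, under the fold minimum, and Rxra gave 0.25 and 0.20, with adjusted p of 0.179 and 0.254. In M compared to C and in LPS+M compared to LPS, only Ppard and Ppargc1b of the 4 tested genes were called. Of all tested genes, 4.55% and 6.71% were called there. In LPS compared to C limma called none of the 4, against 6.13% of all tested genes. Of the 4, 1 had an unadjusted p under 0.05, as did at least 1935 of all 8908.

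**Figure D5:**
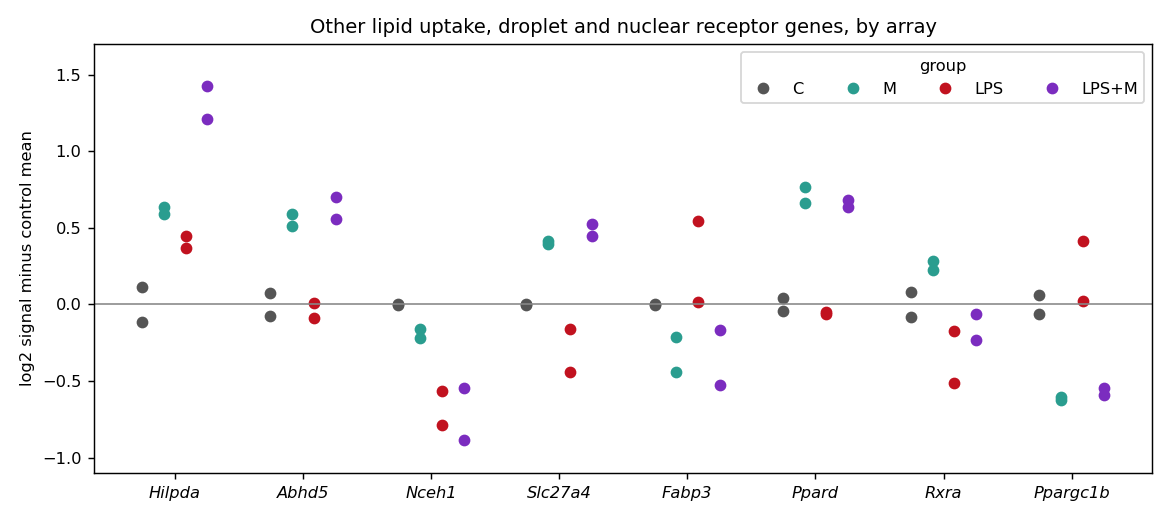
Log2 signal of each array minus the mean of the 2 C arrays for 8 other genes of lipid uptake, droplets and nuclear receptors (points are arrays, coloured by group). Hilpda, Abhd5, Slc27a4 and Ppard lie higher in both menthol groups, Ppargc1b lies lower in both, and Fabp3 and Ppargc1b have LPS arrays that lie apart.

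Genes whose profile over the 8 arrays was nearest to that of Marco or Fabp4 were found by the root mean square difference of log2 signals after each gene was centred, among 8907 other tested genes. For Marco they were Ms4a6c (0.102), Myc (0.113) and Clec2d (0.125). The group means of Myc were 6.88 in C, 7.02 in M, 7.95 in LPS and 7.15 in LPS+M. For Fabp4 they were Xylt2 (0.103), Ptger4 (0.114) and Tlr1 (0.163), and Ptger4, a prostaglandin E2 receptor, had means of 10.5 in C, 9.96 in M, 11.8 in LPS and 10.5 in LPS+M. The NF-kB match found before Marco had 0 occurrences in the promoters of Ms4a6c, Clec2d, Xylt2, Ptger4 and Tlr1, beside 1.41% of all promoters. Myc was not among the promoters searched. Likeness over 8 arrays in 4 groups describes the profile only.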

How the data were processed

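Per the labels, total RNA of RAW 264.7 cells was amplified, labelled with biotin and hybridised to 8 arrays, and the deposited log2 signals were made by the authors with GCRMA 2.10.0 (R version 2.6.1), which corrects background by probe GC content, gives all arrays 1 distribution and summarises probe sets. These values were used as deposited. The median standard error of a difference was 0.08, and 2 arrays per group limit the precision. Groups came from the sample labels, and no array was unmapped.

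Of 45101 probe sets, 34945 carried 1 gene symbol, 932 several and 9160 none, and 64 were controls. Each gene was represented by its brightest probe set, and 8908 genes with a mean above 4.84 were fitted with limma 3.58.1 in R 4.3.3 (lmFit and eBayes, 4 group coefficients, 4 residual and 3.78 prior degrees of freedom). Benjamini-Hochberg adjustment was made over all tested genes of a comparison. The filter and the fold minimum follow the methods, whose t-test was an alternative. With 2 arrays in each of the compared groups, the smallest two-sided p of an exact permutation test would be 0.333. Calls were tested on simulated data with changes of 2-fold only, so that test does not bear on values near the 1.5-fold minimum.

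Deviations of same-numbered arrays correlated weakly between groups, from -0.12 (C with LPS+M) to 0.19 (LPS with LPS+M). Replicate numbers were not used as pairs. The text names the 7 genes, up to 4 called genes of each list with the largest change in a comparison, all genes of lists with fewer than 9 genes, Cd68, Angptl4, Fabp5, Fabp3, Hilpda, Pparg and Acsl1, and the 3 genes nearest in profile to any of the 7 whose group means span at least 1. The 7 genes, the lists and this rule were chosen with earlier results of these data known. The alternatives were other filters, probe set choices, scalings, tests, fold minimums, a replicate block and leaving out each array.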

Additional observations from a re-analysis of the deposited data

Results flagged for a closer look

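The effect of menthol on Marco differed between cells with and without LPS in the main fit, by a narrow call. The difference of the 2 effects was -1.02 on the log2 scale by limma's interaction test (adjusted p = 0.0172), from an effect of 0.05 in resting cells and -0.97 in LPS-stimulated cells. Marco was 1 of 21 genes called in this test, 18 of them negative. Both LPS arrays and both LPS+M arrays bear the second effect, with LPS at 9.86 and 9.86 and LPS+M at 8.90 and 8.88. The interaction was no longer called by limma with no filter (adjusted p = 0.0557) or with every probe set tested by itself (adjusted p = 0.0694). The dimmer probe set of Marco gave -0.92 there (limma adjusted p = 0.301).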

How the results depend on the processing

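Of 997 values of the 6 genes under the alternatives, 933 kept their direction and their side of the threshold, 25 lost a call, 14 gained one and 25 changed sign, none of them a called value. After Benjamini-Hochberg the methods' t-test called 0 of the 6 genes in M vs C, LPS vs C, LPS+M vs LPS and LPS vs M. It also called 0 of all 8908 genes there. At an unadjusted p it called 2, 2, 3 and 3 of the 6, beside 254, 349, 288 and 640 of all 8908. With a fold of at least 2 the counts were 0 in M vs C, 1 in LPS+M vs LPS and 2 in LPS vs M. All tested genes gave 85, 136 and 329 there. With no fold minimum the counts of the 6 were 4 in LPS vs C, 4 in LPS+M vs LPS and 2 in LPS+M vs M. They were 4 in LPS+M vs C and 5 in LPS vs M. In the same order, 1935, 2560, 1268, 3085 and 3450 of all 8908 genes passed. The mean of all probe sets, by which Fabp4 fell under the filter, gave 1 in M vs C and 1 in LPS vs C. All 7855 genes of that fit gave 253 and 402. The interaction count was 0 with no filter and 0 with every probe set tested by itself. Beside these stood 1 of 18193 genes and 2 of 14503 probe sets. Leaving out 1 array gave -0.66 to -0.55 for Fabp4 and -0.64 to -0.57 for Lpl in M vs C. It gave 0.40 to 0.60 for Fabp4 in LPS+M vs M and -0.59 to -0.51 for Lpl in LPS+M vs C. Each of these ranges crosses the fold minimum. The interaction of Marco stayed between -1.08 and -0.96. The replicate block left 2, 2, 3, 0, 0, 3 and 1 of the 6 called, beside 408, 549, 603, 374, 880, 1010 and 20 of all 8908. The order is M vs C, LPS vs C, LPS+M vs LPS, LPS+M vs M, LPS+M vs C, LPS vs M and interaction. Correlations of same-numbered arrays' deviations were -0.12 to 0.19.

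Sign changes were these, all uncalled. Msr1 became 0.064 by the mean of its probe sets and 0.0406, 0.0391 and 0.281 on the single ones in M vs C, -0.00609 and -0.00369 in LPS vs C, 0.161, 0.118, 0.205 and 0.385 in LPS+M vs LPS, and -0.00809, -0.0452 and -0.285 in LPS vs M. Scarb1 became -0.143, -0.338 and -0.124 in LPS vs C, 0.0138 in LPS+M vs LPS, -0.0969 in LPS vs M and 0.255 in the interaction. Leaving out 1 array gave -0.00824 to 0.114 for Marco in M vs C, -0.0467 to 0.113 for Scarb1 in LPS vs C, -0.0721 to 0.0154 for Plin2 in LPS+M vs LPS, and, in the interaction, -0.00426 to 0.0825 for Msr1 and -0.00929 to 0.0782 for Plin2. The causes of these changes were not tested.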

Other observations

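Il1b, an inflammatory cytokine that was not tested because its mean lay under the filter, stood at 5.90 and 5.41 on the LPS arrays, at 3.14 and 3.22 on the LPS+M arrays, and at 3.08 to 3.10 on the C and M arrays. Adgre1, a macrophage surface antigen, rose in LPS compared to C by 0.95 ± 0.07 (limma adjusted p = 6.8e-05), and Fcgr1, a high-affinity immunoglobulin G receptor, fell by 0.89 ± 0.10 (adjusted p = 0.00085). The summed level of the 10 macrophage markers was 17.4 on the C and LPS arrays. That sum is set by the brightest markers, such as Lyz2 at 15.4 to 15.5, so it could not show changes of the dimmer Adgre1 and Fcgr1. Saa3, an acute phase protein induced by LPS, also had a called interaction, -1.66 ± 0.15 (adjusted p = 0.0145), with -1.56 in LPS+M compared to LPS.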
